A study of Sus scrofa with 48 samples.

Results

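Lipolysis and lipid droplet proteins were followed in the subcutaneous adipose tissue (SCAT) of growing pigs through 10 genes: LIPE, PNPLA2, MGLL, ABHD5, G0S2, PLIN1, PLIN2, PLIN3, CIDEC and CIDEA. Members were the array probes that carried 1 of these symbols as gene name, or as the gene of their accession, and that stood well above background on 9 or more of the 12 arrays of any 1 group. This gave 20 probes of the 44356 probes that passed the same filter, out of 60305 on the array. All 20 probes that carried a member symbol passed, and they covered 9 of the 10 genes. No probe carried the symbol G0S2, so that this gene was not measured here. The pigs were castrated Large White males bred for divergent residual feed intake (RFI), which is the feed eaten beyond what growth and maintenance predict, and low RFI pigs are the more efficient line. They were fed ad libitum a diet rich in fat and fiber (HF), in which plant oils took the place of part of the starch and wheat straw diluted the energy, or a diet low in both (LF), so that fat and fiber changed together. Crossing diet and line gave 4 groups of 12 pigs, named here by diet and then line (HF low RFI and so on), with 1 array per pig and an age of 132 days in all.

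Fat cells store triglycerides in a lipid droplet whose surface is coated by proteins of the perilipin and CIDE families. Lipolysis removes the fatty acids stepwise: PNPLA2 (adipose triglyceride lipase) cuts the first, LIPE (hormone-sensitive lipase) the next, and MGLL (monoglyceride lipase) the last. ABHD5 is the co-activator of PNPLA2 and G0S2 its inhibitor. PLIN1 is the coat protein of the large droplet of fat cells and holds ABHD5 until hormones release it, PLIN2 and PLIN3 coat smaller droplets in many cell types, and CIDEC and CIDEA promote the fusion of droplets.

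Each probe is a 60-base sequence. The 6 probes shown here, copied from the scanner files and written 5′ to 3′, are those of PLIN2, MGLL and CIDEA that carried the differences described below, a CIDEC probe that resembles the CIDEA probe, and an ABHD5 probe that lay close to the background. Capitals mark the bases that the CIDEA and CIDEC probes share when they are placed side by side without gaps, and the other sequences are in lower case throughout.
PLIN2 A_72_P088596: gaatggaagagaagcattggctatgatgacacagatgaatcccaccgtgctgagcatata
PLIN2 O11670: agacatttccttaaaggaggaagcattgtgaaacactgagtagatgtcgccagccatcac
MGLL A_72_P370923: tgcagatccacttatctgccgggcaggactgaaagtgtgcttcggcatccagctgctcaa
CIDEA A_72_P078041: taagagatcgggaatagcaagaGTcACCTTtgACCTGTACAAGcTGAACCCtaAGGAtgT
CIDEC O9141: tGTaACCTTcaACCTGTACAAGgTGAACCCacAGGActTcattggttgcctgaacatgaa
ABHD5 O12272: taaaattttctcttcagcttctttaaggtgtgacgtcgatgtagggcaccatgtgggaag

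The CIDEA and CIDEC probes matched at 30 of the 39 bases over which they overlapped (76.9%), with a longest shared run of 11 bases. PLIN2 O11670 had no reading frame free of stop codons on the strand as listed and 1 on its reverse complement. PLIN2 A_72_P088596 had 2 on either strand, and ABHD5 O12272 had 1 as listed and 2 on its reverse complement. No pig transcript sequence was at hand, so that the strand of O11670 and O12272 against their genes was not tested. Neither is taken as an independent second measurement of its gene. No other probe on the array shared a run of 25 bases with 16 of the 20 member probes. The exceptions were LIPE A_72_P223552 and LIPE O11623, which had 58 bases in common and so are not separate measurements of LIPE, and the MGLL and CIDEA probes shown above, each of which had an identical second spot under another name. LIPE A_72_P223552 also had such a second spot.

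The second spots gave the error of the array itself. The median absolute difference between both spots over 48 arrays was 0.04 (log2) for CIDEA, 0.07 for LIPE and 0.12 for MGLL, beside 0.08 over all 1441 pairs of kept probes with a single sequence. The SD of the difference between spots was 0.05 for CIDEA, against an SD between pigs of 0.36 within groups. It was 0.07 against 0.40 for MGLL and 0.07 against 0.24 for LIPE. The MGLL spots differed in mean level (3.29 and 3.16), which is part of their median difference. For these 3 probes most of the spread within groups was thus not a difference between spots on an array. With 1 array per pig, differences between pigs and between arrays cannot be told apart in it.

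Levels are given as the log2 of the background-subtracted signal relative to the median kept probe of the same array, so that a value of 0 is the level of that median probe and levels of different probes are not compared. Differences are log2 fold changes, HF minus LF for diet and low RFI minus high RFI for line, with the SE of the limma fit to all 48 arrays. The study's cut-offs defined a differentially expressed probe (DEP): it had to change by more than 1.1-fold, reach a raw p under 0.01 and keep a p under 0.08 after Benjamini-Hochberg adjustment over all 44356 probes. The labels name no cohort or litter, and p-values measure the spread between these pigs. The share of probes well above background was 62.18% to 81.87% per array. In a bulk tissue sample, fewer cells of a type and less RNA per cell cannot be told apart.

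PLIN2 was up-regulated in low RFI pigs at A_72_P088596, and O11670, listed under PLIN2 with its strand untested, was higher too. MGLL and CIDEA were down-regulated by the HF diet. Each comparison took the 24 pigs of either side of the factor. By diet, 2 of 20 member probes were DEPs (MGLL and CIDEA, both lower under the HF diet), beside 13.1% of all probes in either direction and 7.44% called lower. By line, 2 of 20 were DEPs (both PLIN2 probes, higher in low RFI pigs), beside 1.37% of all probes in either direction and 0.809% called higher. The diet count is therefore near the background of the array. Within 1 line or 1 diet calls were rarer: 0 of 20 member probes were DEPs by diet in low RFI pigs (beside 3.04% of all probes), 0 in high RFI pigs (1.66%), 0 by line in HF pigs (0.0113%) and 1 by line in LF pigs (0.0338%). In limma, 3 of the 20 had a raw p under 0.05 by diet in low RFI pigs and 4 in high RFI pigs, near the 15.1% and 13.9% of all probes. By line, 4 had one in HF pigs and 6 in LF pigs, beside 5.02% and 6.36% of all probes. The median log2 fold change of the 20 probes was -0.11 by diet, with 16 values below 0, beside -0.02 over all probes. It was 0.13 by line, with 17 values above 0, beside 0.01 over all probes, and 0.12 without ABHD5 O12272, which passed the background filter through low RFI groups alone. Several genes have more than 1 probe, so that these counts are not counts of independent genes. Among all probes 42.99% of the diet DEPs were higher under the HF diet, and 58.23% when arrays were scaled to their 75th percentile, a scaling that left the direction of the called member probes as it was.

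**Figure D1:**
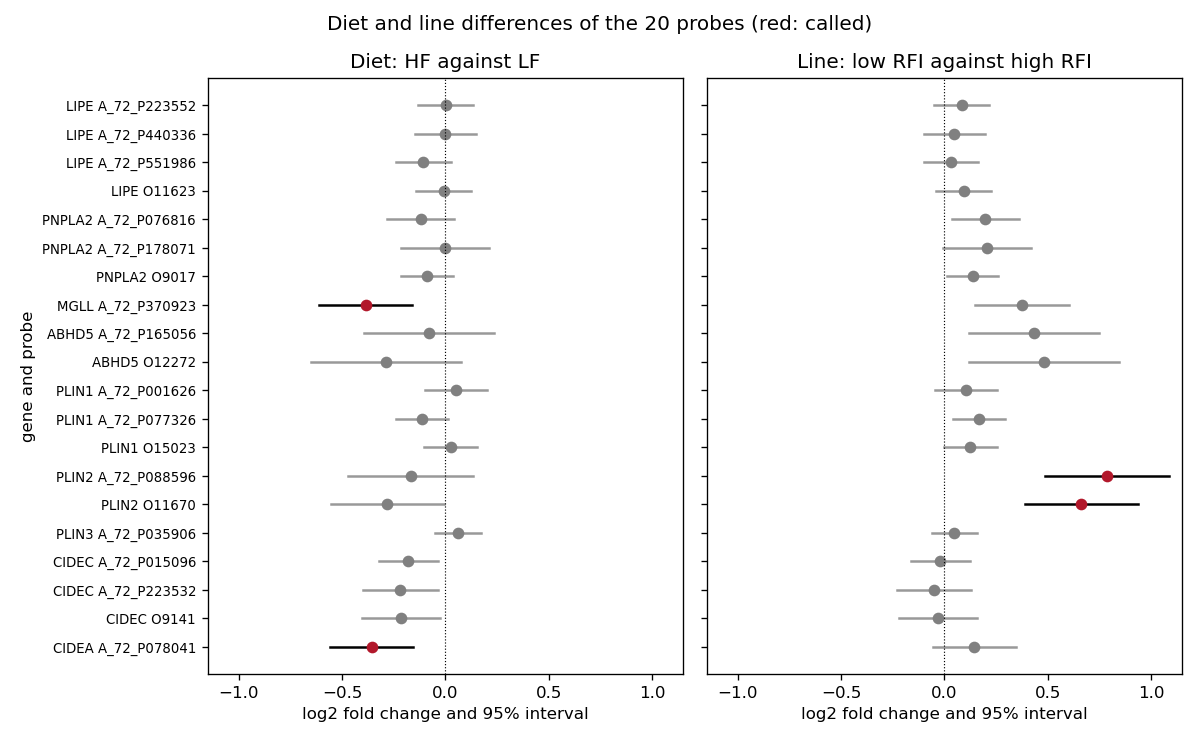
Log2 fold change of each of the 20 probes by diet (left, HF against LF) and by line (right, low against high RFI), with bars for the 95% interval from the limma fit to 48 arrays. Red points are DEPs: MGLL (-0.39) and CIDEA (-0.36) by diet, and the PLIN2 probes (0.79 and 0.66) by line.

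PLIN2, the perilipin of small droplets, had the largest line difference of the 20 probes. At probe A_72_P088596 the level in HF low RFI pigs ran from 1.74 to 4.34 with a median of 2.92, and in HF high RFI pigs from 1.85 to 3.31 with a median of 2.53. Among LF pigs of the low RFI line it ran from 2.41 to 4.68 with a median of 3.31, and in LF high RFI pigs from 1.80 to 3.19 with a median of 2.33. The ranges of the groups overlapped, while 10 of the 24 low RFI pigs lay above every high RFI pig and 22 of 24 lay above the high RFI mean. Means were 3.26 ± 0.63 (SD, n = 24) in low RFI pigs and 2.48 ± 0.45 in high RFI pigs, a 1.73-fold difference (log2 0.79 ± 0.15 SE, adjusted p = 0.00442).

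The other probe listed under PLIN2, O11670, lay below the array median and showed the same pattern. Its level ran from -3.14 to -1.13 with a median of -1.85 in HF low RFI pigs and from -2.97 to -1.83 with a median of -2.48 in HF high RFI pigs. Among LF pigs of the low RFI line it ran from -2.28 to -0.48 with a median of -1.55, and in LF high RFI pigs from -3.08 to -1.42 with a median of -2.41. Of the 24 low RFI pigs, 7 lay above every high RFI pig and 22 above the high RFI mean. Means were -1.72 ± 0.55 (SD, n = 24) and -2.38 ± 0.45, a 1.58-fold difference (log2 0.66 ± 0.14 SE, adjusted p = 0.00817). The size at this probe depended on the background treatment: the difference was 0.36 with normexp correction and 0.44 in the deposited table, which has no background subtraction, and it was a DEP in both.

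The line difference in PLIN2 was above 0 under both diets, and 1 of the 4 values was a DEP. At A_72_P088596 it was 0.995 ± 0.21 (log2, SE) under the LF diet, where it was a DEP (adjusted p = 0.0749), and 0.58 ± 0.21 under the HF diet, where it was not (adjusted p = 0.652). At O11670 it was 0.84 ± 0.19 under the LF diet (adjusted p = 0.104) and 0.48 ± 0.19 under the HF diet (adjusted p = 0.791). The difference between diets was not resolved, with an interaction of -0.42 ± 0.30 and a 95% interval of -1.02 to 0.19 at A_72_P088596.

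PLIN2 was also compared within each of the 2 scan dates, which held 6 pigs of each group. The line difference at A_72_P088596 was 0.72 ± 0.19 on the first date (adjusted p = 0.0919) and 0.85 ± 0.21 on the second (adjusted p = 0.558). At O11670 it was 0.74 ± 0.17 (adjusted p = 0.0508) and 0.59 ± 0.21 (adjusted p = 0.626). With 12 pigs per line on a date, all 4 values kept the direction and 1 of them was a DEP. By diet, PLIN2 differed by -0.17 ± 0.15 and -0.28 ± 0.14 at its 2 probes, and neither was a DEP (adjusted p = 0.519 and 0.184). These differences were -0.01 and -0.11 on the first scan date and -0.33 and -0.46 on the second.

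**Figure D2:**
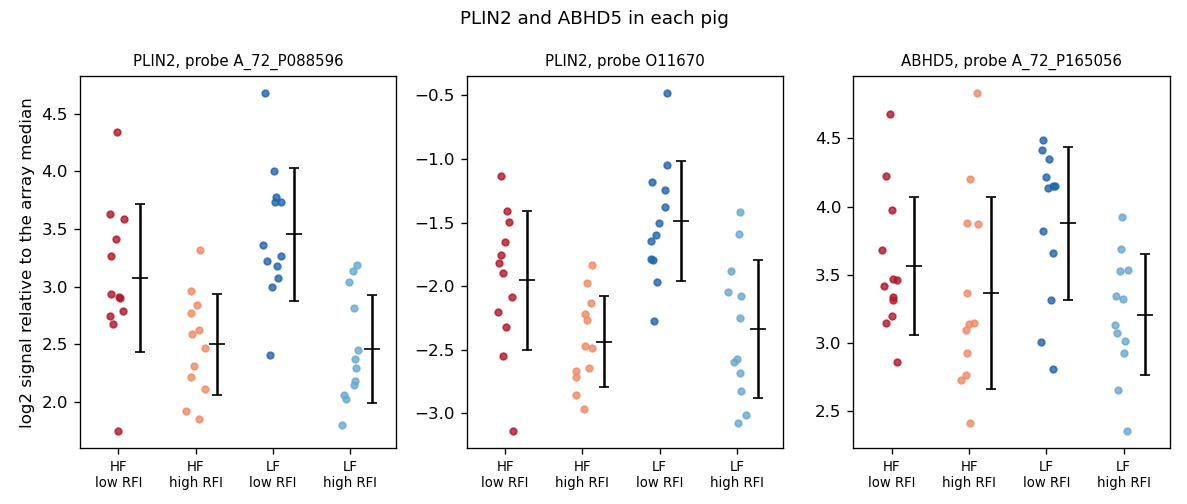
Log2 signal relative to the array median for both PLIN2 probes and ABHD5 probe A_72_P165056 in each pig, by group (12 points each), with the mean and SD beside the points. The PLIN2 means of the low RFI groups (3.08 and 3.45 at A_72_P088596) lie above those of the high RFI groups (2.50 and 2.46), and the ranges overlap.

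Both PLIN2 probes ranked the pigs alike. The deviations of the 48 pigs from their group means correlated with r = 0.81 and rho = 0.81 between the probes (permutation p = 1e-05 for each, the smallest that 100000 permutations can give, adjusted p = 1.1e-05 over 17 pairs of probes of 1 gene). Without the 2 pigs farthest from the median r was 0.77, and within the scan dates it was 0.94 and 0.84. Across the 17 such pairs of the 6 genes with several probes r lay between 0.35 and 0.96. The highest was LIPE A_72_P223552 with O11623, which share 58 bases and so are not separate measurements. The lowest was the ABHD5 pair (r = 0.35, rho = 0.31, permutation p = 0.0208 and 0.0398, adjusted p = 0.0208 and 0.0398), and for every other pair r was 0.66 or above with an adjusted p of 1.1e-05. The lowest rho among them was 0.63 (permutation, adjusted p = 4.25e-05).

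**Figure D3:**
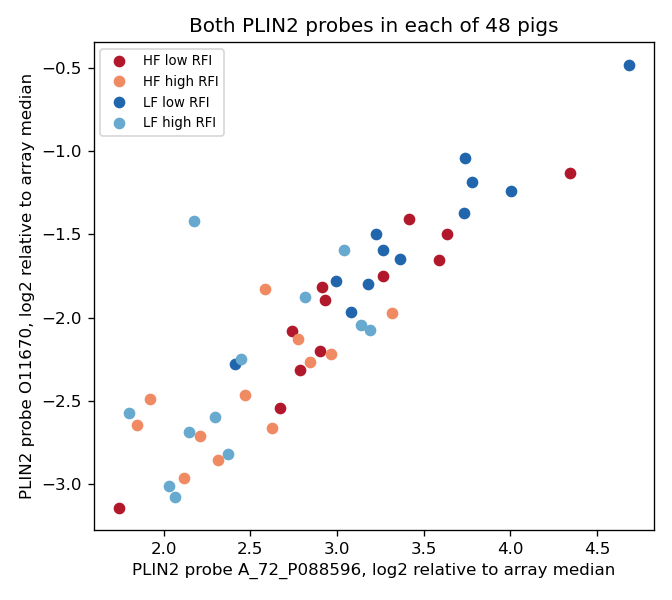
Level of PLIN2 at probe O11670 against its level at probe A_72_P088596 in each of the 48 pigs (log2 relative to the array median), coloured by group. Pigs high at 1 probe were high at the other (r = 0.81 after removal of the group means), and the low RFI groups extend to the upper right.

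MGLL, the enzyme of the last step of lipolysis, was down-regulated by the HF diet. Its level ran from 2.81 to 3.89 with a median of 3.22 in HF low RFI pigs and from 2.39 to 3.50 with a median of 2.83 in HF high RFI pigs. It ran from 2.79 to 4.44 with a median of 3.71 in LF low RFI pigs and from 2.52 to 3.63 with a median of 3.27 in LF high RFI pigs. The diets overlapped, with 5 LF pigs above every HF pig and 19 of the 24 LF pigs above the HF mean. Means were 3.10 ± 0.39 (SD, n = 24) in HF pigs and 3.48 ± 0.48 in LF pigs, a 1.31-fold difference (log2 -0.39 ± 0.11 SE, adjusted p = 0.0194). The second spot of the same sequence gave -0.40 ± 0.12 (adjusted p = 0.0175), which repeats the measurement on the same samples.

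The diet difference in MGLL was -0.41 ± 0.16 in low RFI pigs and -0.36 ± 0.16 in high RFI pigs, and neither was a DEP alone (adjusted p = 0.175 and 0.285). On the first scan date it was -0.41 ± 0.14 (adjusted p = 0.0933) and on the second -0.36 ± 0.17 (adjusted p = 0.292). One more probe, A_72_P155351, lay outside the rule and was described on the array as similar to the human MGLL protein. It was chosen after its values were seen, and it fell by 0.43 ± 0.08 on the log2 scale (adjusted p = 0.000259).

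By line, MGLL differed by 0.38 ± 0.11 (1.30-fold), with means of 3.48 ± 0.49 (SD, n = 24) and 3.10 ± 0.38. Its adjusted p of 0.0946 missed the cut-off of 0.08, and it passed in 5 of 18 alternative settings, among them the fits with the slide or the scan date as a block. The difference was 0.23 ± 0.14 on the first scan date and 0.52 ± 0.17 on the second (adjusted p = 0.536 and 0.609). The median was highest in LF low RFI pigs and lowest in HF high RFI pigs. The interaction was -0.05 ± 0.22 (95% interval -0.50 to 0.40).

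CIDEA, a droplet fusion protein best known from brown fat, was likewise down-regulated by the HF diet. Its level ran from 5.84 to 7.19 with a median of 6.60 in HF low RFI pigs and from 5.42 to 7.11 with a median of 6.39 in HF high RFI pigs. It ran from 6.38 to 7.40 with a median of 6.95 in LF low RFI pigs and from 6.39 to 7.36 with a median of 6.76 in LF high RFI pigs. Of the HF pigs, 9 lay below every LF pig, and 20 of the 24 LF pigs lay above the HF mean. Means were 6.52 ± 0.40 (SD, n = 24) and 6.88 ± 0.32, a 1.28-fold difference (log2 -0.36 ± 0.10 SE, adjusted p = 0.0149). The second spot gave -0.35 ± 0.10 (adjusted p = 0.0177).

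The diet difference in CIDEA was -0.45 ± 0.14 in low RFI pigs (adjusted p = 0.0844) and -0.27 ± 0.14 in high RFI pigs (adjusted p = 0.4), with an interaction of -0.18 ± 0.20. It was -0.33 ± 0.09 on the first scan date (adjusted p = 0.0564) and -0.39 ± 0.18 on the second (adjusted p = 0.271). By line CIDEA differed by 0.15 ± 0.10 and was not a DEP (adjusted p = 0.713).

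CIDEC, the fusion protein of white fat cells, had diet differences below 0 at each of its 3 probes, none of which passed the cut-offs. At A_72_P015096 the medians were 8.42 (low RFI) and 8.30 (high RFI) under the HF diet and 8.56 and 8.61 under the LF diet, with values from 7.71 to 8.84 over all pigs. The log2 fold changes were -0.18 ± 0.07, -0.22 ± 0.09 and -0.22 ± 0.09 (adjusted p = 0.0922, 0.108 and 0.134), and 21 of 24 LF pigs lay above the HF mean at A_72_P015096. The log2 differences were -0.25, -0.32 and -0.31 on the first scan date, where the last 2 were DEPs, and -0.11, -0.11 and -0.12 on the second, where none was. A_72_P015096 was a DEP with quantile normalization, and all 3 probes were DEPs with array weights. The CIDEC probe that resembles the CIDEA probe did not stand apart from the other CIDEC probes. By line the 3 values lay between -0.05 and -0.02.

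**Figure D4:**
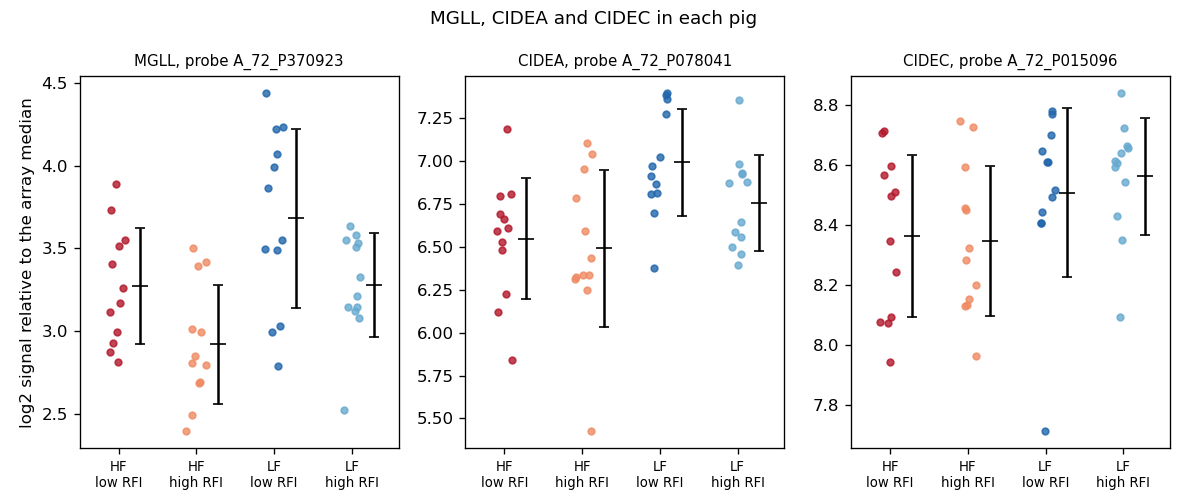
Log2 signal relative to the array median for MGLL, CIDEA and CIDEC (probe A_72_P015096) in each pig, by group (12 points each), with the mean and SD beside the points. HF groups lie lower than LF groups of the same line for each gene, with overlapping ranges.

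The lipases of the first steps showed no DEP. LIPE, measured by 4 probes, differed by diet by between -0.11 and 0.00, and the 95% intervals together spanned -0.24 to 0.15. Its line differences lay between 0.03 and 0.09. A_72_P223552, the LIPE probe with the highest signal, had means of 8.65 ± 0.21 (SD, n = 24) in HF pigs and 8.65 ± 0.27 in LF pigs.

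PNPLA2 was measured by 3 probes, and its diet differences lay between -0.12 and 0.00 (adjusted p = 0.364 to 0.992). Its line differences were 0.20 ± 0.08, 0.21 ± 0.11 and 0.14 ± 0.06, and none was a DEP (adjusted p = 0.311, 0.505 and 0.408). They were 0.06, 0.01 and 0.11 on the first scan date and 0.34, 0.40 and 0.17 on the second. At O9017 the mean was 7.95 ± 0.23 (SD, n = 24) in low RFI pigs, 7.82 ± 0.21 in the high RFI line, and 16 of 24 low RFI pigs lay above the high RFI mean.

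ABHD5, the co-activator of PNPLA2, had a line difference of 0.43 ± 0.16 (1.35-fold) at A_72_P165056 that did not pass the cut-offs (adjusted p = 0.213). It was 0.06 ± 0.20 on the first scan date and 0.81 ± 0.21 on the second, so that the value over all pigs came mostly from the second date. At A_72_P165056 the level ran from 2.86 to 4.68 with a median of 3.44 in HF low RFI pigs and from 2.41 to 4.83 with a median of 3.14 in HF high RFI pigs. It ran from 2.81 to 4.49 with a median of 4.14 in LF low RFI pigs and from 2.35 to 3.92 with a median of 3.23 in LF high RFI pigs. The line difference was 0.67 ± 0.22 under the LF diet and 0.20 ± 0.22 under the HF diet, with an interaction of -0.47 ± 0.31 (95% interval -1.10 to 0.16). O12272 lay close to the background, being well above it on 9 (low RFI) and 5 (high RFI) of 12 arrays under the HF diet and on 10 and 8 under the LF diet. It was kept through the low RFI groups, and its strand was not tested. Its line difference (0.48 ± 0.18, adjusted p = 0.241) is therefore given as a value and not as a second measurement of the ABHD5 difference. The other 19 probes were well above background on all 48 arrays.

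Of the remaining coat proteins, PLIN1 differed by diet by -0.12 to 0.05 at its 3 probes, and the 95% intervals together spanned -0.24 to 0.20. Its line differences were 0.11 to 0.17 (adjusted p = 0.230 to 0.732). PLIN3, with 1 probe, differed by 0.06 ± 0.06 by diet (95% interval -0.05 to 0.17) and by 0.05 ± 0.06 by line (95% interval -0.06 to 0.16).

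No member probe was a DEP for the diet by line interaction, beside 0% of all probes. In the limma fit 0 of 20 member probes and 462 of the 44356 had a raw p under 0.05 for it, and a two-way analysis of variance called 0 probes as well.

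Log ratios within a pig were used to ask whether genes of the same step or coat changed unequally, with each gene at its probe of highest mean signal. For 6 ratios by diet and by line, 12 two-sided permutation tests (100000 resamples within strata of the other factor) were adjusted together. MGLL over LIPE was lower under the HF diet by 0.39 (log2, means -5.55 ± 0.33 against -5.17 ± 0.43, SD, n = 24, permutation p = 0.00052, adjusted p = 0.00312). LIPE itself differed by 0.001 by diet, so that the diet value of this ratio adds little to the MGLL value of -0.39. By line MGLL over LIPE was higher in low RFI pigs by 0.29 (permutation p = 0.00654, adjusted p = 0.0262). On the first and second scan dates MGLL over LIPE was lower under the HF diet by 0.43 and 0.35 (permutation, adjusted p = 0.0403 and 0.123). By line it was higher in low RFI pigs by 0.14 and 0.45 (permutation, adjusted p = 0.752 and 0.0473). The difference between the dates was not tested.

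PLIN2 over PLIN1 was higher in low RFI pigs by 0.66 (means -4.61 ± 0.59 against -5.27 ± 0.44, SD, n = 24, permutation p = 6e-05, adjusted p = 0.00072). It was higher by 0.61 on the first scan date and by 0.71 on the second (permutation, adjusted p = 0.0403 and 0.0462). CIDEC over PLIN1 was lower under the HF diet by 0.21 (permutation p = 0.0125, adjusted p = 0.0374). That last call was lost in 5 of 6 alternative settings, with an adjusted p of 0.0691 from the mean of all probes and of 0.0553 in the deposited table. For the other 8 ratio comparisons the adjusted permutation p was 0.182 or higher, among them CIDEA over CIDEC by diet (-0.18, permutation, adjusted p = 0.2).

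Pigs also differed within groups. Over 48 pigs, deviations from the group means were correlated for the 36 pairs of the 9 genes, again with 1 probe per gene, and 16 pairs passed an adjusted permutation p of 0.05, each with r above 0 overall and within both scan dates. All values come from the same arrays with the same centring, so that arrays share whatever the centring did not remove. Correlations of this size were common on the array: the lowest r that passed was 0.33, and between 11.5% and 41.5% of all kept probes reached that absolute r to a given member gene. The 95th percentile of the absolute r lay between 0.42 (ABHD5) and 0.60 (PLIN3). Of the 16 pairs, 7 exceeded this percentile for both of their genes and 6 for neither, and the last were ordinary for these arrays.

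PNPLA2 and MGLL, the first and last lipase, formed the closest pair (r = 0.69, rho = 0.64, permutation p = 1e-05 for each, adjusted p = 0.00036). The r was 0.65 without the 2 pigs farthest from the PNPLA2 median, and 0.63 and 0.72 within the scan dates. A larger absolute r to PNPLA2 was found for 0.133% of all kept probes, and to MGLL for 0.225%. PNPLA2 and its co-activator ABHD5 had r = 0.53 and rho = 0.54 (permutation p = 0.00021 and 0.0002, adjusted p = 0.00151 and 0.0018), with 0.34 and 0.71 within the scan dates. PNPLA2 and LIPE had r = 0.47 and rho = 0.45 (permutation, adjusted p = 0.00301 and 0.00564), with 0.52 and 0.29 within the scan dates and 0.39 from the mean of all probes. A larger absolute r was found for 7.93% of kept probes to PNPLA2 and for 3.20% to LIPE.

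PLIN2 varied with ABHD5 (r = 0.54, rho = 0.58, permutation p = 9e-05 and 2e-05, adjusted p = 0.00081 and 0.00036), with 0.49 and 0.67 within the scan dates and 0.51 without the 2 farthest pigs. It also varied with CIDEA (r = 0.59, rho = 0.56, permutation p = 3e-05 and 6e-05, adjusted p = 0.00048 and 0.00072), but with 0.17 on the first scan date and 0.79 on the second. MGLL and CIDEA had r = 0.57 and rho = 0.50 (permutation p = 4e-05 and 0.00069, adjusted p = 0.00048 and 0.00276), with 0.46 and 0.75 within the scan dates. A larger absolute r than that to the partner was found for 1.73% to 2.32% of all kept probes for these last 2 genes.

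Pairs with PLIN1 and PLIN3 were weaker. PLIN1 and PLIN2 had r = 0.34 and rho = 0.25 (permutation p = 0.0165 and 0.101, adjusted p = 0.0425 and 0.169), and r fell to 0.19 without the 2 farthest pigs, so that it rested on them. A larger absolute r was found for 23.8% of kept probes to PLIN1 and for 15.3% to PLIN2. PLIN3 was in none of the 16 pairs, and its lowest value was with PLIN2 (r = -0.30, rho = -0.31, permutation p = 0.049 and 0.0363, adjusted p = 0.0881 and 0.0777), at -0.64 and 0.13 within the scan dates.

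**Figure D5:**
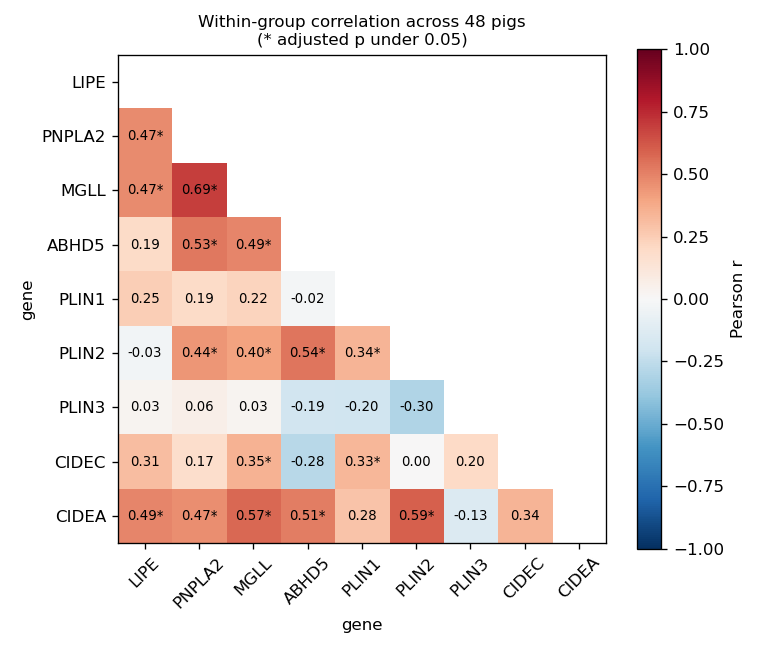
Pearson r between 9 genes over 48 pigs after removal of the group means (scale from -1 to 1, 1 probe per gene), with stars for an adjusted permutation p under 0.05. The lipases PNPLA2 and MGLL (0.69), and CIDEA with PLIN2 (0.59) and MGLL (0.57), hold the highest values, and PLIN3 has no starred pair.

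Genes that act beside this set changed in few cases. Of 25 other droplet and lipolysis genes, 18 had a kept probe, and by diet 1 was called lower and none higher, beside 12.7% of 9625 genes called in either direction. It was PNPLA3, a droplet lipase related to PNPLA2, which fell by 0.94 ± 0.25 on the log2 scale (adjusted p = 0.011). By line 1 was called, beside 1.3% of genes: BSCL2 (seipin, which helps to form droplets) was higher in low RFI pigs by 0.24 ± 0.06 (adjusted p = 0.046). The list's medians were -0.09 by diet and 0.06 by line, beside -0.04 and 0.02 over all genes.

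Of 20 genes of the hormonal control of lipolysis, 19 were measured, among them adrenergic receptors, G proteins and protein kinase A subunits. By diet 1 of the 19 was called, beside 12.7% of all genes: PRKAR2A, a regulatory subunit of protein kinase A, which fell by 0.21 ± 0.06 on the log2 scale (adjusted p = 0.0155). By line 1 of the 19 was called, beside 1.3% of all genes: PRKAR1A, another regulatory subunit, higher in low RFI pigs by 0.24 ± 0.07 (adjusted p = 0.0603). The fat cell receptor ADRB3 differed by -0.14 ± 0.15 by diet and by 0.02 ± 0.15 by line (adjusted p = 0.592 and 0.991). Its probe was dim, with a mean level of -3.71 beside -4.04 for ABHD5 O12272, and these values carry that limit.

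Marker lists of cell types were set beside these results. All 10 adipocyte markers were measured, none of the 10 was absent, and by diet 2 fell, LEP by 0.67 ± 0.16 and CEBPA by 0.27 ± 0.07 on the log2 scale (adjusted p = 0.00494 and 0.00931), with 1 value above 0 and a median of -0.11. Over all 9625 genes 12.7% were called by diet, 901 genes of them lower, and a count of 2 in a list of 10 does not set these markers apart from it. MGLL and CIDEA fell under that diet too, and the part of adipocyte content in their differences was not tested. The summed linear level of the adipocyte list ran under the HF diet from 1680.7 to 2305.0 (low RFI) and 1564.8 to 2266.0 (high RFI), and under the LF diet from 1621.0 to 2276.9 and 1496.2 to 2414.4 (in units of the median probe). The medians were 1987 and 1858 under the HF diet and 2165 and 1967 under LF. They were thus lower in HF pigs, as MGLL and CIDEA were, and higher in the low RFI line, as PLIN2 was, with overlapping ranges and no test. A linear sum gives most weight to the brightest probes, here FABP4 and ADIPOQ (mean levels 9.74 and 9.14), and not to the list as a whole. These differed by -0.114 and 0.107 by diet and by 0.098 and 0.115 by line, and none of the 4 values was called.

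The stroma and preadipocyte list had 9 of 10 values above 0 by diet and a median of 0.16, with 1 call, PDGFRA, higher under the HF diet by 0.31 ± 0.11 (adjusted p = 0.0661). Its sum ran under the HF diet from 1053.0 to 1586.8 (low RFI) and 1229.8 to 1865.2 (high RFI), and under the LF diet from 847.8 to 1599.8 and 840.2 to 2258.5. The medians were 1467 and 1488 for HF pigs and 1296 and 1312 for LF pigs. By line, where PLIN2 was higher in low RFI pigs, the stroma and preadipocyte list had 1 of 10 values above 0, a median of -0.10 and 0 calls. The macrophage list (ITGAM had no kept probe) had 2 of 9 values above 0, a median of -0.16 and 0 calls by line. The part of these lists in the differences of the members was not tested. The macrophage sum ran under the HF diet from 26.2 to 105.8 (low RFI) and 39.5 to 115.9 (high RFI), and under the LF diet from 30.5 to 130.2 and 36.9 to 101.0. The adipocyte list had 0 calls and a median of 0.03 by line. The lists of skeletal muscle (9 measured genes), blood (4), endothelium (6) and T and B lymphocytes (7) had 0 calls by diet and by line, with medians of -0.20, -0.12, 0.00 and 0.03 by diet and of 0.04, -0.06, 0.04 and 0.09 by line.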

How the data were processed

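RNA from SCAT of 48 pigs was Cy3-labelled and hybridized to 6 slides of 8 custom porcine arrays, each slide with 2 pigs of every group, and the authors read the scans with version 10.7.3.1 of Agilent Feature Extraction. Per the deposited scanner files, values are spot intensity on a linear scale, of which the background-subtracted processed signal was used. A log2 table for 38987 probes, which the authors deposited beside them, held the log2 median signal minus the array median and served as an alternative. The submitters' processing notes name R 2.10.0. Flagged spots (156 among kept probes) were set to missing, and no spot was saturated. Log2 signals were centred on each array's median over the 44356 kept probes. Groups came from the sample titles.

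Diet, line and interaction were fitted with limma 3.58.1 (lmFit, eBayes with trend, two-sided) in R 4.3.3, tested on simulated data, and the study's two-way analysis of variance was an alternative. Ratios and correlations used permutation tests in Python 3.11.15 (numpy 2.4.6). Genes outside the member list were represented by the kept probe with the highest mean signal, and named where called, up to 5 per list and factor. ADRB3 was named outside this rule, without a call. Symbols came from the array and the reference gene tables of Sscrofa11.1. The array lists its probes as unmapped, so no genome position is given. The members, lists and tests were chosen with earlier results of these data known. The ratios with G0S2 were not run.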

Additional observations from a re-analysis of the deposited data

How the results depend on the processing

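Across 18 alternative settings, 695 of 716 recomputed values of member probes kept their side of the cut-offs, and none of the called values changed sign. Another 30 values that were never called changed sign, the largest of them 0.08 as reported. Of 20 member probes, 0 were DEPs by diet on the second scan date alone and 5 with array weights. Over all 44356 probes these counts were 1230 and 7811, so that calls with array weights rose across the array. By line, 1 and 0 member probes were DEPs on the first and second scan dates and 6 with array weights. The counts over all probes were 425, 1 and 1796. MGLL by diet (-0.41 and -0.36 on the scan dates), CIDEA by diet (-0.39 on the second), and PLIN2 by line (A_72_P088596 0.72 and 0.85, O11670 0.59 on the second) lost their calls there, where each line or diet had 12 pigs. With array weights, CIDEC by diet (-0.21, -0.26 and -0.26), PNPLA2 A_72_P076816 (0.27), MGLL (0.40), ABHD5 A_72_P165056 (0.48) and PLIN1 A_72_P077326 (0.18) by line became DEPs. So did CIDEC by diet with quantile normalization (-0.18, A_72_P015096) and on the first scan date (-0.32 and -0.31, against -0.11 and -0.12 on the second), and MGLL by line with the slide or the scan date as a block (0.38) and without the array with the fewest probes above background (0.40), a setting chosen after seeing the data. The causes were not tested.

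Over all probes, DEPs by diet were 2407 and 1230 on the scan dates. By line they were 399 with no filter on dim probes, 957 with the slide as a block, 1 on the second scan date, 262 with array position as a block and 1796 with array weights. Ratio calls were lost for MGLL over LIPE by diet on the second scan date (-0.35) and by line on the first (0.14), and for CIDEC over PLIN1 by diet with the mean of all probes (-0.19), normexp (-0.20), the deposited table (-0.21) and on each scan date (-0.18 and -0.23).

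The labels do not say that a replicate number marks a shared litter or batch, so the numbers were not used as pairs in the main fit. Same-numbered pigs did deviate more alike, on the median, than pigs of different number and group, though not in every pair. Over 72 same-numbered pairs, deviations correlated from -0.19 to 0.45 (median 0.16, against -0.02 over pairs of different number and group), 48 pairs were over 0.1, and 17 of 48 arrays were closest to an array of their own number. Same-numbered pigs also shared a slide, with 2 numbers on each, and the part of the slide in this was not tested. With the replicate number as a block, 7124 probes were DEPs by diet and 1140 by line. Among member probes, CIDEC A_72_P015096 by diet (-0.18) and MGLL by line (0.38) were added in this replicate block fit, and no member call was lost.

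Precision is limited by 12 pigs per group and, for ABHD5 O12272, by a signal close to background.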
